A study of Mus musculus with 12 samples.

Results

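The genes described here are 7 costimulatory receptors of the tumour necrosis factor (TNF) receptor family, Tnfrsf4 (OX40), Tnfrsf8 (CD30), Tnfrsf9 (4-1BB), Tnfrsf14 (HVEM), Tnfrsf18 (GITR), Tnfrsf25 (DR3) and Cd27, with Traf1, an adaptor of these receptors. They were picked by gene symbol, and all 8 were found among the 55450 genes of both deposited count tables. The messenger RNA came from mouse CD4 T cells that were Pkm2 knockout (KO) or wild type (WT). Pkm2 is the M2 form of the glycolytic enzyme pyruvate kinase, and neither the knockout's allele nor the cells in which it acts is stated. The 4 groups of 3 libraries were KO stimulated, WT stimulated, KO resting and WT resting cells. Every culture held human interleukin 7 (25 ng/mL), a survival cytokine of T cells, and the stimulated cultures also had plate-bound antibodies to CD3 (1 ug/mL) and CD28 (2 ug/mL). The design text calls the starting cells naive T cells of spleen and lymph nodes cultured for 24 hours, while the sample labels call them splenocytes cultured overnight. RNA was taken from positively selected CD4 cells. The sources used here do not tie libraries to animals, so a p-value reflects the spread among the 3 libraries of a group, which may be purely technical.

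Costimulatory TNF receptors give T cells signals for expansion and survival beside those of the antigen receptor and CD28. They bind ligands of the TNF family on other cells, and most recruit TRAF adaptors directly to the cytoplasmic tail and activate NF-kB. HVEM also binds BTLA and CD160, which are not TNF family members, and DR3 carries a death domain that recruits the adaptor TRADD. CD27, HVEM and DR3 are found on naive T cells, whereas OX40, 4-1BB and CD30 are known as receptors that appear after activation, and OX40 and GITR are also high on regulatory T cells. TRAF1 binds TRAF2 and takes part in signalling by 4-1BB and CD30.

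Library totals ran from 67333490 to 76891786 counts in stimulated and from 63266477 to 72128433 in resting cells. Levels are given in CPM (a gene's count relative to the library total, after TMM scaling between all 12 libraries), and each of the 8 genes had at least 202 counts in every library. Pkm, the targeted gene, lay at 1056, 1065 and 1036 CPM in KO stimulated and at 2483, 2450.4 and 2521 CPM in WT stimulated cells. At rest it lay at 172, 195 and 188 CPM in KO and at 424, 431 and 509 CPM in WT libraries. Cd4 was at 381 to 405 CPM in KO stimulated, 353 to 399 in WT stimulated, 839 to 911 in KO resting and 633 to 844 in WT resting libraries, while Cd8a did not pass 26.7 CPM in any library. Stimulated and resting cells also differed in sex-linked transcripts. Xist lay at 941 to 1126 CPM in stimulated against 0.0496 to 0.0867 CPM in resting libraries, and Ddx3y at 0 against 143 to 167 CPM. The Y-linked genes Uty, Eif2s3y and Kdm5d also had 0 counts in every stimulated library. This is the pattern of female source cells in the stimulated and male source cells in the resting libraries. Stimulation therefore cannot be told apart from the sex of the source or from the table in which each set was deposited. All 8 genes lie on autosomes, and the part of sex in their levels was not tested.

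Of the 8 genes, 6 lie within 10.8 megabases of chromosome 4 in mm10: Tnfrsf8 (145267137 to 145315164, minus strand), Tnfrsf9 (150914562 to 150946102, plus), Tnfrsf25 (152115934 to 152120119, plus), Tnfrsf14 (154921933 to 154928563, minus), Tnfrsf4 (156013843 to 156016612, plus) and Tnfrsf18 (156026164 to 156028895, plus). Tnfrsf4 and Tnfrsf18 are neighbours, 9551 bases apart on the same strand. Cd27 lies on chromosome 6 (125232622 to 125237010, minus) and Traf1 on chromosome 2 (34941750 to 34961772, minus). An antisense gene, Gm16008, shares 414 exonic bases with Tnfrsf18 and itself held 0 to 11 counts per library. No source used here says whether the counting took account of strand.

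Promoters of 4 genes are shown. Tnfrsf4 and Cd27 responded most steeply to stimulation, upward and downward. Tnfrsf8 and Tnfrsf9 are shown because a window of each matched both NF-kB and AP-1, factors that T cell activation switches on. These windows were thus picked by their matches, which are no result about the receptors that rose. Each is the 250 bases before a start site of RefSeq on GRCm38.p6, 5′ to 3′ on the gene's strand. The Tnfrsf9 promoter shown belongs to the second of its start sites in genome order. Capitals mark matches to the NF-kB consensus or to the AP-1 motif TGANTCA, searched on both strands.
Tnfrsf4, chr4:156013445-156013694, plus strand: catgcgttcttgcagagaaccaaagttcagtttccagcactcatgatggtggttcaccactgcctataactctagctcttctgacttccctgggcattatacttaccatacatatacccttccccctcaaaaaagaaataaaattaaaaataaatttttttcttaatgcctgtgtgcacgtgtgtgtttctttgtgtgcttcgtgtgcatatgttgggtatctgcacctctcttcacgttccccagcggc
Tnfrsf8, chr4:145315165-145315414, minus strand: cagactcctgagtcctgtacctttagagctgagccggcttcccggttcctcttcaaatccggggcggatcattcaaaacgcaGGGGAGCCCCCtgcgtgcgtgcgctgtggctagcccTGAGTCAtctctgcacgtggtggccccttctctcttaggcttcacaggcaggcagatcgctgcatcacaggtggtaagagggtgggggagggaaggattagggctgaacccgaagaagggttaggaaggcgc
Tnfrsf9, chr4:150927749-150927998, plus strand: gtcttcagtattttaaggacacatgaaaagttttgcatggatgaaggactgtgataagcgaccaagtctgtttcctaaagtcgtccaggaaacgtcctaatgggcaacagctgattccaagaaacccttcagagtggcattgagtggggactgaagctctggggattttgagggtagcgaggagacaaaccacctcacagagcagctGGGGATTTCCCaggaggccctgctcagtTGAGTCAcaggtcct
Cd27, chr6:125237028-125237277, minus strand: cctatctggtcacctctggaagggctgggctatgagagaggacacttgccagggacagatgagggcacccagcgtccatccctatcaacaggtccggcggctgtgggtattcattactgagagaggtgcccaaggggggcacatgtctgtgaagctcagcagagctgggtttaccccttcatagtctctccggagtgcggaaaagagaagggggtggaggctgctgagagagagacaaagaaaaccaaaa

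The windows shown for Tnfrsf8 and Tnfrsf9 each held an AP-1 match and a stretch that matched NF-kB at 2 overlapping positions, while the window at the first start site of Tnfrsf9 held 0 matches to either motif. Of 32841 mouse promoters of this length, 7.25% held an NF-kB match and 6.75% an AP-1 match. Tnfrsf25 held 1 NF-kB match, at the second of its start sites, and the windows of Tnfrsf4, Tnfrsf14, Tnfrsf18, Cd27 and Traf1 held neither motif. The NFAT core GGAAA, which 55.6% of all promoters held, was present at every start site except that of Tnfrsf8. These matches are a description of letters and not of bound sites.

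The order of the receptors by level was taken per kilobase of exon so that genes can be compared. It differed in part between stimulated and resting cells, while Tnfrsf18 ranked 2 in all 4 groups. In stimulated cells Tnfrsf4 led, with 166 ± 11.4 CPM per kilobase in KO and 191 ± 14.3 in WT cells (SD, n = 3 each). Tnfrsf18 was next (72.6 ± 4.54 in KO and 70.1 ± 3.61 in WT cells), followed by Tnfrsf9 (46.9 ± 2.28 and 34.95 ± 2.16). Cd27 came next, with 26.2 ± 0.694 CPM per kilobase in KO and 23.0 ± 0.913 in WT stimulated cells. Tnfrsf14, Tnfrsf25 and Tnfrsf8 lay between 6.18 and 12.8 CPM per kilobase. In resting cells Cd27 led, with 90.6 ± 7.06 CPM per kilobase in KO and 80.5 ± 5.86 in WT cells. Tnfrsf18, Tnfrsf14 and Tnfrsf25 followed at 20.5 to 29.9, and Tnfrsf8 was lowest at 1.10 ± 0.372 in KO and 1.09 ± 0.200 in WT cells. Neighbours in these orders did not overlap in their libraries, with 3 exceptions that all involve Traf1: Traf1 and Tnfrsf14 in WT stimulated, Tnfrsf25 and Traf1 in KO resting, and Traf1 and Tnfrsf4 in WT resting cells. Some places rest on the length used. Traf1 ranked 5 at rest by its merged exons and 2 by its longest transcript, and by that length it also stood above Cd27 in stimulated cells of both genotypes. By the longest transcript Tnfrsf25 stood above Tnfrsf14 in WT resting cells (31.9 ± 1.80 against 31.0 ± 0.724 CPM per kilobase) and above Tnfrsf8 in KO stimulated cells (8.88 ± 0.547 against 8.38 ± 1.06), the reverse of the order by merged exons.

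**Figure D1:**
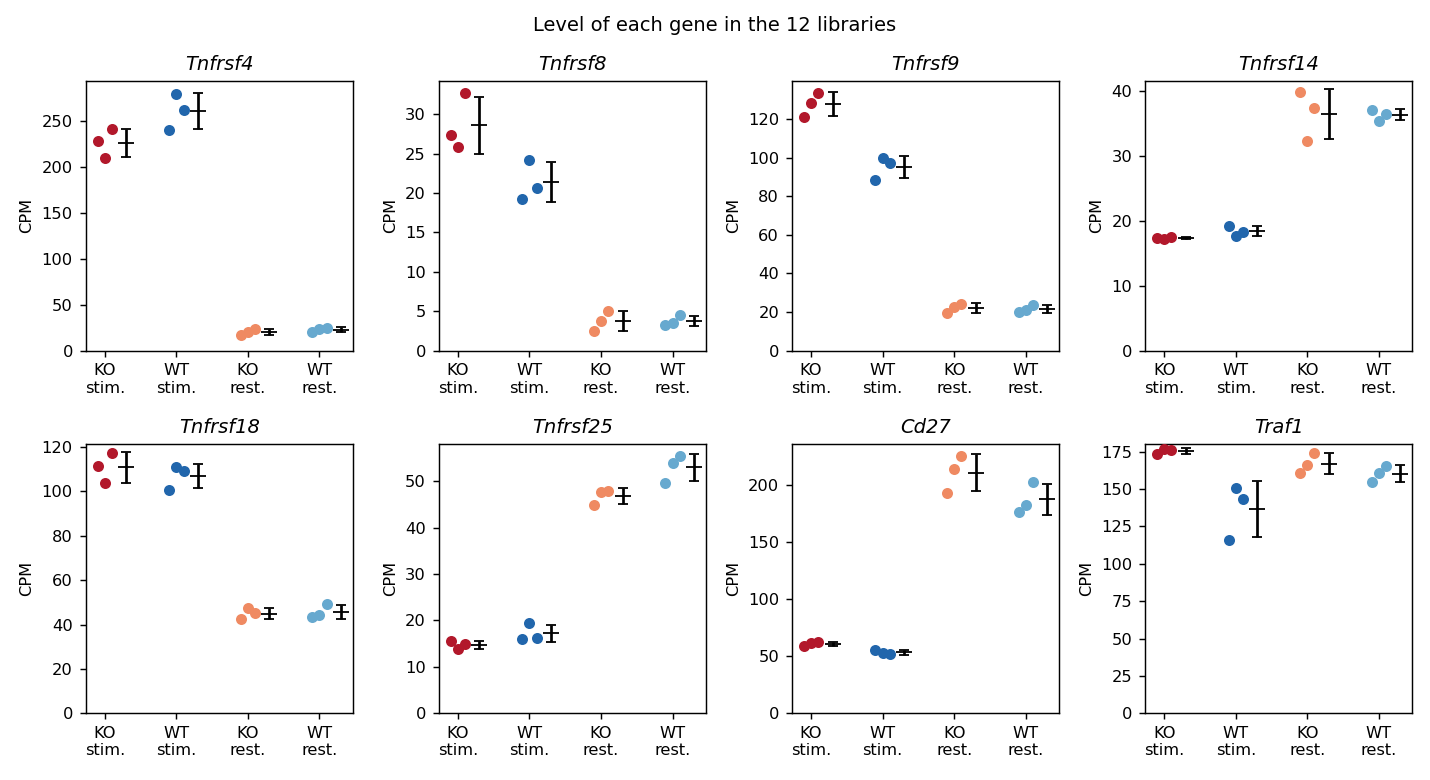
CPM of each gene in the 12 libraries, with KO stimulated, WT stimulated, KO resting and WT resting cells from left to right. Points are libraries, and the black bar beside them is the mean ± SD (n = 3). The axis starts at 0 in each panel. Tnfrsf4, Tnfrsf8, Tnfrsf9 and Tnfrsf18 stand high in stimulated libraries, Tnfrsf14, Tnfrsf25 and Cd27 in resting ones, and Traf1 lies at 116 to 177 CPM in all.

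The summed level of the 7 receptors was 338 ± 18.5 CPM per kilobase in KO and 346 ± 20.1 in WT stimulated cells, against 190.2 ± 10.9 in KO and 185 ± 11.6 in WT resting cells. Tnfrsf4 made up 49.0% ± 0.880 of that sum in KO and 55.3% ± 0.934 in WT stimulated cells. Tnfrsf9 made up 13.2% to 14.7% in KO and 10.0% to 10.2% in WT stimulated libraries, without overlap. The shares of the other receptors did not overlap between the genotypes either, except that of Tnfrsf14 (3.39% to 3.71% in KO and 3.37% to 4.11% in WT). Of those without overlap, Tnfrsf4 and Tnfrsf25 were lower in KO, and Tnfrsf8, Tnfrsf18 and Cd27 were higher. All shares divide the same sum, so they depend on each other. By CPM, 28.0% of all genes tested in stimulated cells did not overlap between the genotypes. At rest the share of Tnfrsf9 was 4.28% ± 0.237 in KO and 4.29% ± 0.104 in WT cells. The resting shares of Cd27 (higher in KO) and Tnfrsf25 (lower in KO) did not overlap, and those of the other receptors did. Tnfrsf25 made up 10.8% ± 0.301 of the sum in KO and 12.6% ± 0.382 in WT resting cells. Cd27 made up 7.74% ± 0.403 of the sum in KO and 6.68% ± 0.622 in WT stimulated cells, against 47.6% ± 1.08 in KO and 43.6% ± 0.461 in WT resting cells.

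**Figure D2:**
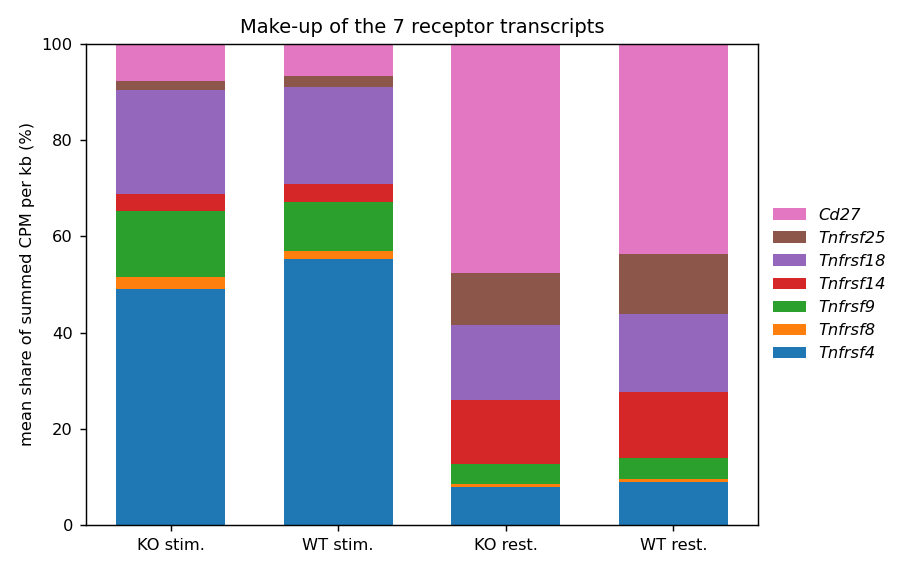
Mean share of each receptor (%) in the summed CPM per kilobase of the 7 receptors, in KO stimulated, WT stimulated, KO resting and WT resting cells from left to right (n = 3 each). Tnfrsf4 fills about 49.0% of the KO and 55.3% of the WT stimulated bar, and Cd27 47.6% of the KO and 43.6% of the WT resting bar.

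Stimulated and resting cells were set against each other to ask how activation through CD3 and CD28 altered these genes in each genotype. A set of 4 receptors rose in both genotypes, Tnfrsf4, Tnfrsf8, Tnfrsf9 and Tnfrsf18, and 3 fell in both, Cd27, Tnfrsf25 and Tnfrsf14. In KO cells 7 of 8 genes passed (4 higher, 3 lower), where 82.9% of 17460 tested genes passed (39.6% higher and 43.2% lower). In WT cells 8 of 8 passed (4 higher, 4 lower), where 84.1% of the tested genes passed (39.3% higher and 44.8% lower). A call alone therefore sets these genes apart from few others, and the sizes carry the description. The median log2 fold change of the 8 genes was 0.69 in KO and 0.50 in WT cells, against -0.11 and -0.14 over all genes. Without a scaling factor between libraries the median of all genes moved to -0.44 in KO and -0.47 in WT cells. The split of calls was then 5537 higher to 9110 lower in KO and 5544 to 9351 in WT cells, against 6917 to 7550 and 6861 to 7821 with it. The direction of the 7 receptors was the same under every scaling tried.

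Tnfrsf4, the receptor for OX40 ligand, had the steepest rise. It lay at 228, 210.2 and 241 CPM in KO stimulated against 17.5, 20.6 and 23.1 CPM in KO resting libraries. In WT it lay at 241, 279.8 and 263 CPM in stimulated against 20.04, 23.2 and 25.1 CPM in resting libraries. The stimulated libraries of either genotype stood far above all resting ones, an 11.1-fold difference in KO (log2 fold change 3.47 ± 0.12 SE, edgeR adjusted p = 5.0e-11) and 11.5-fold in WT cells (3.52 ± 0.12, adjusted p = 4.2e-11).

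Tnfrsf8, which binds CD30 ligand, was at 27.3, 25.8 and 32.7 CPM in KO stimulated against 2.51, 3.80 and 5.08 CPM in KO resting libraries. In WT it was at 19.3, 24.2 and 20.6 CPM in stimulated against 3.21, 3.56 and 4.54 CPM in resting libraries. The groups did not overlap, and the rise was 7.54-fold in KO (log2 2.91 ± 0.23, edgeR adjusted p = 5.9e-07) and 5.67-fold in WT cells (2.50 ± 0.23, adjusted p = 1.9e-06).

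Tnfrsf9, the receptor for 4-1BB ligand, was at 121, 128 and 134 CPM in KO stimulated against 19.5, 22.8 and 24.3 CPM in KO resting libraries. In WT it was at 88.6, 99.8 and 97.0 CPM in stimulated against 19.9, 21.3 and 23.6 CPM in resting libraries. Stimulated libraries lay above all resting ones in both genotypes, 5.76-fold in KO (log2 2.52 ± 0.09, edgeR adjusted p = 2.2e-11) and 4.41-fold in WT cells (2.14 ± 0.09, adjusted p = 8.9e-11).

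Tnfrsf18, the receptor for GITR ligand, was at 111, 104 and 117 CPM in KO stimulated against 42.5, 47.4 and 45.0 CPM in KO resting libraries. In WT it was at 101, 111 and 109 CPM in stimulated against 43.2, 44.2 and 49.3 CPM in resting libraries, again without overlap. Its rise was the smallest of the 4, at log2 1.30 ± 0.07 in KO and 1.23 ± 0.07 in WT cells (edgeR adjusted p = 8.0e-10 and 1.3e-09).

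Cd27, whose ligand is CD70, had the steepest fall. It lay at 59.1, 61.3 and 62.3 CPM in KO stimulated against 193, 214 and 225 CPM in KO resting libraries. In WT it lay at 55.9, 53.1 and 51.8 CPM in stimulated against 177, 183 and 203 CPM in resting libraries. No stimulated library came near a resting one, and the log2 fold change was -1.79 ± 0.07 in KO and -1.81 ± 0.07 in WT cells (edgeR adjusted p = 3.1e-11 and 2.7e-11).

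Tnfrsf25, the receptor for TL1A, was at 15.6, 13.8 and 14.9 CPM in KO and 16.1, 19.4 and 16.2 CPM in WT stimulated cells, against 44.9, 47.6 and 47.8 CPM in KO and 49.6, 53.9 and 55.3 CPM in WT resting cells. Its log2 fold change was -1.67 ± 0.08 in KO and -1.62 ± 0.08 in WT cells (edgeR adjusted p = 2.8e-10 and 3.2e-10). Tnfrsf14, which binds LIGHT, BTLA and CD160, was at 17.3, 17.1 and 17.4 CPM in KO and 19.2, 17.7 and 18.3 CPM in WT stimulated cells, against 39.9, 32.3 and 37.3 CPM in KO and 37.1, 35.4 and 36.5 CPM in WT resting cells. Its log2 fold change was -1.08 ± 0.07 in KO and -0.98 ± 0.07 in WT cells (adjusted p = 6.7e-09 and 1.6e-08). For both genes every stimulated library lay below every resting one.

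Traf1 lay within 116 to 177 CPM in all 12 libraries. It was at 173, 177 and 176 CPM in KO stimulated against 161, 166 and 174 CPM in KO resting libraries, which overlap. The log2 fold change in KO cells was 0.07 ± 0.08 (95% interval -0.08 to 0.22, edgeR adjusted p = 0.41), and it turned to -0.26 (adjusted p = 0.0053) without a scaling factor between libraries. Intervals here and below are normal approximations from the SE, and they are narrower than edgeR's own test would give. In WT cells Traf1 lay at 116, 151 and 144 CPM in stimulated against 155, 161 and 166 CPM in resting libraries, a fall of 0.23 ± 0.08 on the log2 scale (adjusted p = 0.015). That call was lost without WT resting replicate 3 (adjusted p = 0.052) and without WT stimulated replicate 1 (-0.12, adjusted p = 0.0502), and the value was -0.57 without a scaling factor.

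**Figure D3:**
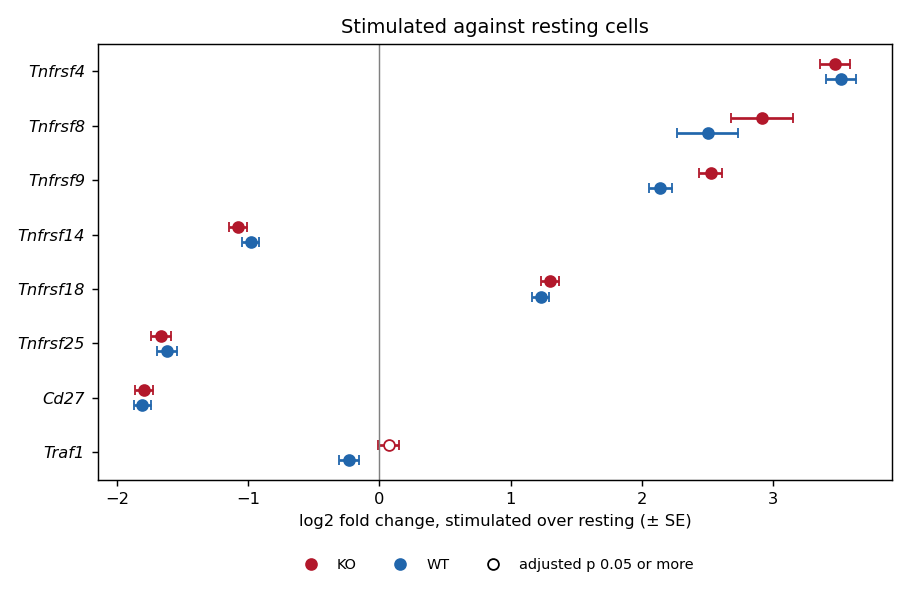
Log2 fold change of stimulated over resting cells (horizontal axis) for each gene, KO above WT, with bars of ± SE from edgeR over all 12 libraries; filled points passed an adjusted p of 0.05. Tnfrsf4, Tnfrsf8, Tnfrsf9 and Tnfrsf18 lie right of 0 and Tnfrsf14, Tnfrsf25 and Cd27 left of it in both genotypes, and Traf1 lies at 0.07 in KO and -0.23 in WT cells.

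Bulk RNA mixes all cells of a culture, so fewer cells of a type and less RNA per cell cannot be told apart. Marker lists of other cell types also moved with stimulation. The 16 myeloid markers summed to 36.0 to 43.3 CPM in KO and 17.2 to 32.1 CPM in WT stimulated libraries, against 947 to 1002 and 1111 to 3202 CPM in KO and WT resting libraries, and all 16 fell in both genotypes. The 16 B cell markers summed to 965 to 999 CPM in KO and 507 to 775 CPM in WT stimulated libraries, against 1792 to 2054 and 1395 to 2464 CPM at rest, and 13 of 16 fell while 1 rose in each genotype. The 10 regulatory T cell markers summed to 1245 to 1399 CPM in KO and 1269 to 1365 CPM in WT stimulated libraries, against 457 to 575 and 486 to 606 CPM at rest. In that list only 2 of 10 rose in either genotype, Ctla4 and Il2ra, which activation also induces. In KO cells 5 fell and in WT cells 7, among them Foxp3, the defining factor of these cells, in both. The rise of the sum rests mostly on Il2ra, at 928 to 1008 CPM in KO and 954 to 1063 CPM in WT stimulated libraries. At rest Il2ra lay at 59.7 to 80.8 CPM in KO and 60.2 to 101 CPM in WT libraries. None of these 3 lists had a marker at 0 in all libraries of a group, and their part in the response of the receptors was not tested.

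KO and WT cells were then compared within each condition. In stimulated cells Tnfrsf9 and Cd27 were higher in KO, and no member was lower past the threshold. These are 2 of 8 genes, where 4.76% of 15090 tested genes passed (3.37% higher and 1.40% lower). Without a scaling factor between libraries the split of all calls was 567 higher to 120 lower, against 508 to 211 with it, and both Tnfrsf9 and Cd27 passed either way. The median log2 fold change of the 8 genes was 0.12, against -0.00 over all genes tested. An unadjusted p under 0.05 was reached by 6 of the 8, and by 20.6% of all genes tested.

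Tnfrsf9 averaged 128 ± 6.21 CPM in KO and 95.1 ± 5.87 CPM in WT stimulated cells (SD, n = 3 each). The lowest KO library, at 121 CPM, stood above the highest WT library, at 99.8 CPM. The difference was 1.35-fold (log2 0.43 ± 0.05, edgeR adjusted p = 0.0024), and it passed with each of the 6 libraries left out in turn (adjusted p up to 0.029).

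Cd27 averaged 60.9 ± 1.61 CPM in KO and 53.6 ± 2.13 CPM in WT stimulated cells, again without overlap, since the lowest KO library was at 59.1 and the highest WT library at 55.9 CPM. The difference was 1.14-fold (log2 0.19 ± 0.04, edgeR adjusted p = 0.030). It no longer passed without WT stimulated replicate 3 or without any 1 of the KO stimulated replicates 1, 2 and 3 (adjusted p up to 0.13), nor in the fit of all 12 libraries (log2 0.18, adjusted p = 0.24).

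Traf1 and Tnfrsf8 gave differences of like size with more spread. Traf1 averaged 176 ± 1.75 CPM in KO and 137 ± 18.4 CPM in WT stimulated cells (log2 0.37 ± 0.09, edgeR adjusted p = 0.078). WT stimulated replicate 1 was the lowest of all, at 116 CPM. Without it the log2 value was 0.26 and Traf1 passed (adjusted p = 0.0055), as it did in the fit of all 12 libraries (adjusted p = 0.046). Tnfrsf8 averaged 28.6 ± 3.61 CPM in KO and 21.4 ± 2.57 CPM in WT stimulated cells (log2 0.43 ± 0.11, adjusted p = 0.079), and without WT stimulated replicate 2 it passed (0.53, adjusted p = 0.041). DESeq2 called 5 of the 8 genes, Tnfrsf4, Tnfrsf8, Tnfrsf9, Cd27 and Traf1, where it called 8.07% of the 14146 genes to which it gave an adjusted p.

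The other members did not pass. Tnfrsf4 averaged 227 ± 15.6 CPM in KO and 261 ± 19.5 CPM in WT stimulated cells (log2 -0.20 ± 0.06, 95% interval -0.32 to -0.08, edgeR adjusted p = 0.12). Tnfrsf25 averaged 14.8 ± 0.908 CPM in KO and 17.2 ± 1.89 CPM in WT cells (-0.22 ± 0.08, interval -0.37 to -0.06, adjusted p = 0.15). Tnfrsf14 gave -0.08 ± 0.05 (interval -0.18 to 0.02) and Tnfrsf18 0.06 ± 0.05 (interval -0.04 to 0.15).

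By single libraries, KO and WT stimulated cells did not overlap for 6 of the 8 genes, higher in KO for Tnfrsf8, Tnfrsf9, Cd27 and Traf1 and lower for Tnfrsf14 and Tnfrsf25. Of all genes tested there, 28.0% did not overlap either. The count was 5 without a scaling factor, where Tnfrsf14 overlapped, and 7 when the 6 stimulated libraries were scaled by themselves, where Tnfrsf4 was lower without overlap.

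**Figure D4:**
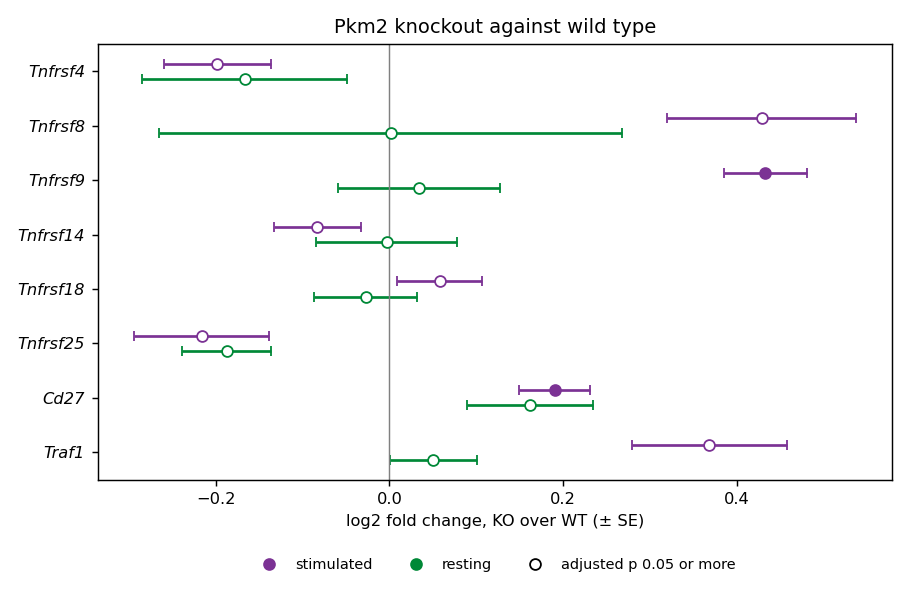
Log2 fold change of KO over WT (horizontal axis) for each gene, stimulated cells above resting cells, with bars of ± SE from edgeR fits of 6 libraries each; filled points passed an adjusted p of 0.05. In stimulated cells Tnfrsf9 (0.43) and Cd27 (0.19) are filled, and no point of resting cells is.

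Levels of several other cell types' markers moved with genotype in stimulated cells. B cell markers summed to 965 to 999 CPM in KO and 507 to 775 CPM in WT libraries, and 2 of 16 were higher in KO past the threshold, Ighd and Spib. Of the myeloid markers, 6 of 15 tested were higher (36.0 to 43.3 against 17.2 to 32.1 CPM in sum). Dendritic cell markers summed to 61.3 to 72.8 CPM in KO and 36.5 to 46.9 CPM in WT libraries (2 of 5 tested higher), and CD8 markers to 31.7 to 36.4 and 17.3 to 24.0 CPM (1 of 2 higher). Gamma-delta T cell markers summed to 7.12 to 8.99 CPM in KO and 5.21 to 5.59 CPM in WT libraries (1 of 5 higher). NK cell markers summed to 57.4 to 68.5 CPM in KO and 33.5 to 62.4 CPM in WT libraries, with 0 of 8 past the threshold. Neutrophil sums overlapped (7.25 to 15.6 against 1.05 to 23.5 CPM, 0 of 5 tested passed). So did erythroid sums (15.5 to 26.8 against 20.5 to 79.8 CPM, 0 of 5), with a median log2 value of -1.05. CD4 T cell markers overlapped too (3230 to 3293 against 3232 to 3320 CPM, 0 of 12). Regulatory T cell markers overlapped in sum (1245 to 1399 against 1269 to 1365 CPM) and 0 of 10 passed. Foxp3 lay at 26.1 to 39.7 CPM in KO and 17.8 to 23.1 CPM in WT libraries (log2 0.66 ± 0.21, edgeR adjusted p = 0.18). Memory or effector markers also overlapped in sum (1230.0 to 1319 against 1255 to 1312 CPM), and 3 of 10 were higher, Cxcr3, S100a4 and S100a6. Naive T cell markers summed to 1819.5 to 1919 CPM in KO and 1786.5 to 1846 CPM in WT libraries. In that list 3 of 8 were higher in KO, Klf2 (log2 0.66), S1pr1 (0.43) and Ccr7 (0.37), and 1 was lower, Lef1 (-0.17). Apart from Retnlg, a neutrophil gene in WT libraries, and the Y-linked genes, no marker was at 0 in all libraries of a stimulated group, and the part of these cells in the receptor differences was not tested.

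In resting cells 0 of 8 genes differed between KO and WT by edgeR, where 0.0361% of 16637 tested genes passed. DESeq2 also called 0 of the 8, where it called 3.09% of 15065 genes. By edgeR 1 of the 8 had an unadjusted p under 0.05, as 13.7% of all genes tested did. That 1 was Tnfrsf25, at 46.8 ± 1.65 CPM in KO and 52.9 ± 2.99 CPM in WT resting cells (log2 -0.19 ± 0.05, edgeR adjusted p = 0.28). It was also the only member whose resting libraries did not overlap, as 19.9% of all genes tested did not (with Cd27, 2 members without a scaling factor). Cd27 averaged 211 ± 16.4 CPM in KO and 187 ± 13.6 CPM in WT resting cells (0.16 ± 0.07, adjusted p = 0.39), a value like that in stimulated cells. Tnfrsf9 averaged 22.2 ± 2.44 CPM in KO and 21.6 ± 1.87 CPM in WT resting cells (0.03 ± 0.09, 95% interval -0.15 to 0.22). By the normal approximation the intervals of Tnfrsf14, Tnfrsf18 and Traf1 also held 0 and stayed within -0.16 and 0.16. That of Tnfrsf8, the lowest gene at rest, ran from -0.52 to 0.52. Tnfrsf4 averaged 20.4 ± 2.82 CPM in KO and 22.8 ± 2.54 CPM in WT resting cells (-0.17, edgeR adjusted p = 0.57). Memory or effector markers summed to 764 to 850 CPM in KO and 972 to 1194 CPM in WT resting libraries. Myeloid markers summed to 947 to 1002 and 1111 to 3202 CPM. The sums of the other marker lists overlapped, no marker passed, and the part of these cells was not tested.

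Whether KO and WT cells differed in their response to stimulation was tested directly. Response here means stimulated against resting libraries, which also differ in sex-linked transcripts and in their table. A difference between genotypes in the response to stimulation therefore cannot be told apart from one tied to those differences. By edgeR 0 of 8 genes passed, where 0.693% of 17460 genes did, and 2 of the 8 had an unadjusted p under 0.05, as 15.9% of all genes did. Tnfrsf9 gave a difference of 0.38 ± 0.12 on the log2 scale (KO minus WT response, 95% interval 0.15 to 0.61, adjusted p = 0.14). Traf1 gave 0.30 ± 0.11 (interval 0.09 to 0.52, adjusted p = 0.21). Tnfrsf8 gave 0.41 ± 0.32, with an interval of -0.21 to 1.03. The other 5 genes lay between -0.10 and 0.07.

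The pathway around the receptors was read from 5 lists of genes. KO and WT resting cells gave no call in any list, where 0.0361% of 16637 tested genes passed. An unadjusted edgeR p under 0.05 was reached at rest by 13.7% of all genes. It was reached by 5 of 9 ligands, 0 of 21 TRAF and proximal genes and 6 of 22 NF-kB genes. Among other TNF receptors 2 of 18 reached it, and among the CD28 family and related genes 4 of 10. In stimulated cells 4.76% of all genes passed (3.37% higher and 1.40% lower in KO), and the lists held 1 to 3 calls each. The ligands gave 1 of 9 tested genes, and it was lower in KO: Lta, which encodes lymphotoxin alpha, a ligand of HVEM and of TNF receptors, averaged 91.7 ± 4.96 CPM in KO and 108 ± 4.33 CPM in WT cells (log2 -0.23 ± 0.04, edgeR adjusted p = 0.018). The TRAF adaptors and proximal signalling genes gave 2 of 21, both higher. These were Birc2, the ubiquitin ligase cIAP1 that binds TRAF2 (50.6 ± 1.35 CPM in KO and 41.7 ± 2.64 CPM in WT cells, log2 0.29 ± 0.05), and Tnip1, a partner of A20 (0.18 ± 0.04). The NF-kB genes and targets gave 3 of 22, all higher. Nfkbie, an inhibitor of NF-kB, averaged 55.1 ± 0.806 CPM in KO and 43.7 ± 3.55 CPM in WT cells (0.34 ± 0.05). Nfkbiz, an atypical member of the same inhibitor family, gave 0.29 ± 0.06, and Rela, the p65 subunit, gave 0.19 ± 0.03. The medians of these 3 lists were 0.17, 0.06 and 0.04, against -0.00 over all genes.

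Other TNF receptors gave 3 of 17 tested genes, all higher in KO stimulated cells, with a list median of 0.19. Tnfrsf11a, the RANK receptor, was low in both genotypes, at 0.804 ± 0.105 CPM in KO and 0.266 ± 0.0257 CPM in WT cells (log2 1.59 ± 0.24, edgeR adjusted p = 0.0083). Tnfrsf26 averaged 10.4 ± 0.174 CPM in KO and 6.88 ± 1.33 CPM in WT cells (0.60 ± 0.12), and Tnfrsf1b, the second TNF receptor, 97.7 ± 5.01 and 85.4 ± 5.61 CPM (0.20 ± 0.05). The CD28 family and related genes gave 2 of 10, both lower, with a list median of -0.06. They were Cd40lg, the CD40 ligand (54.8 ± 0.0399 CPM in KO and 71.6 ± 6.28 CPM in WT cells, -0.38 ± 0.06), and Cd226, the receptor DNAM-1 (45.1 ± 1.09 and 54.8 ± 4.24 CPM, -0.28 ± 0.05). Of these 11 calls only that of Tnfrsf11a passed with each of the 6 libraries left out; the others passed in 1 to 5 of the 6. In the fit of all 12 libraries 6 of the 11 did not pass, Lta, Tnip1, Nfkbiz, Tnfrsf1b, Cd226 and Cd40lg (adjusted p 0.055 to 0.23). Tnfrsf1b also did not pass with DESeq2's size factors or with a non-robust fit (adjusted p = 0.057 in each).

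**Figure D5:**
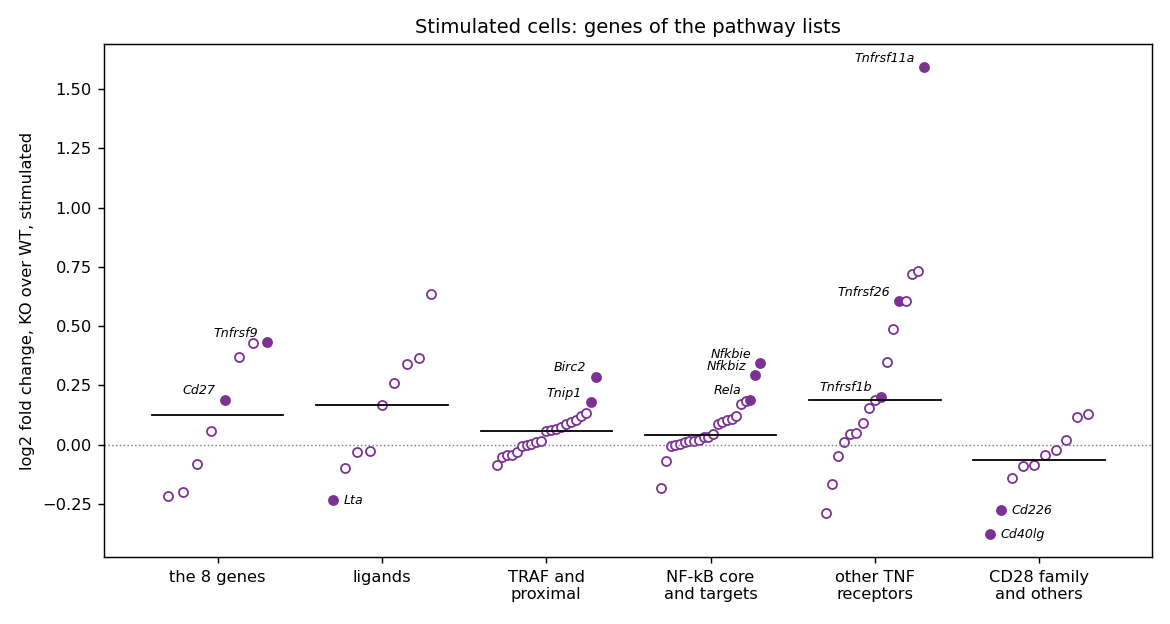
Log2 fold change of KO over WT in stimulated cells (vertical axis) for the 8 genes and the tested genes of 5 pathway lists, ordered by value within a list. Filled, named points passed an edgeR adjusted p of 0.05 and the black line is the median. The named points of the TRAF, NF-kB and other TNF receptor lists lie above 0, while Lta, Cd40lg and Cd226 lie below it.

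The same lists were counted for stimulation, with which 39.6% of all genes rose and 43.2% fell in KO cells, and 39.3% rose and 44.8% fell in WT cells. Of 10 ligand genes 8 rose and 2 fell in both genotypes; Lta rose by log2 2.13 in KO and 2.34 in WT cells, and Tnfsf4, the OX40 ligand, by 3.09 and 5.00. Cd70, the CD27 ligand, stayed low, at 0.607 to 0.843 CPM in KO and 0.381 to 0.543 CPM in WT stimulated libraries, against at most 0.0990 CPM in any resting library. Tnfsf18, the GITR ligand, had 0 counts in all stimulated libraries, against 0.223 to 0.334 CPM in KO and 0.238 to 1.92 CPM in WT resting libraries. Of 21 TRAF and proximal genes 9 rose and 10 fell in both genotypes, counts close to the shares over all genes; among them were Traip (log2 3.56 in KO and 3.91 in WT cells) and Traf3ip3 (-2.59 and -2.57). Of 22 NF-kB genes and targets 14 rose in both genotypes, while 6 fell in KO and 5 in WT cells. Bcl2l1, which encodes the survival protein Bcl-xL, led them with 3.29 ± 0.06 in KO and 3.34 ± 0.06 in WT cells, and Nfkb2 gave 1.79 and 1.83. Of 19 other TNF receptors 5 rose and 11 fell in KO cells, and 4 rose and 12 fell in WT cells. Of 10 genes of the CD28 family and related genes 7 rose and 2 fell in KO cells, and 8 rose and 1 fell in WT cells, with Slamf1 at 2.20 and 2.35 and Pdcd1, which encodes PD-1, at 2.24 and 1.78.

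Genes with the most similar pattern were looked up among 10308 genes by Pearson's correlation of log2(CPM + 0.5). Over all 12 libraries the closest were Rrp7a for Tnfrsf4 (0.999), Chordc1 for Tnfrsf8 (0.991), Dusp4 for Tnfrsf9 (0.995), Slc12a9 for Tnfrsf14 (0.997), Abcc1 for Tnfrsf18 (0.998), Crip1 for Tnfrsf25 (0.998) and Sbk1 for Cd27 (0.999). These values mostly follow the contrast of stimulated and resting libraries, since each of the 7 receptors had 2433 to 4177 genes above 0.95. Traf1 had 0 such genes, and its closest was Sp140 (0.895). Condition was then taken out by averaging the correlations within the 6 stimulated and the 6 resting libraries, which still span both genotypes. The closest were Uba7 for Tnfrsf9 (0.976), Arhgap4 for Cd27 (0.965), Myo1g for Traf1 (0.978) and Plcb4 for Tnfrsf14 (0.957). The others were Ndufb5 for Tnfrsf25 (0.943), Ifi203 for Tnfrsf8 (0.941), Lta for Tnfrsf4 (0.928) and Gzma for Tnfrsf18 (0.907). Within stimulated libraries Tnfrsf9 and Tnfrsf8 correlated with each other at 0.919, and at rest at 0.953. Traf1 correlated with Tnfrsf14 at -0.976 and with Tnfrsf9 at 0.938 in stimulated libraries, and at -0.144 and 0.870 at rest. The values of both genes in a pair come from the same libraries, with the same depth and cell make-up in each, and the correlations are given as a description.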

How the data were processed

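Gene expression tables of 12 mouse CD4 T cell libraries were analysed as deposited. The values the authors deposited are expected counts (RSEM estimates, about 7% of them not whole), with resting and stimulated libraries in separate tables. RSEM 1.3.1, STAR 2.7.0f, cutadapt 1.18, bcl2fastq 2.20 and the build mm10 are named in the submitters' processing notes, without settings. Per the labels' protocols the kit was stranded and selected polyadenylated RNA. Coordinates come from GENCODE M21 and promoters from RefSeq.

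Expected counts were rounded, kept by filterByExpr (minimum count 10, total 15), TMM-scaled and fitted in edgeR 4.0.16 (robust quasi-likelihood F-test, R 4.3.3). P-values were adjusted by Benjamini-Hochberg over all genes tested, with a threshold of 0.05. Each test was run on simulated counts with the same spread for every gene and few changed genes. These data differ in both respects, so that run checks the code and not the calls. KO and WT were compared in the 6 libraries of each condition. Stimulation and the difference of responses were tested in 1 fit of all 12 libraries, which spans both tables. CPM use the TMM-scaled totals of all 12 libraries. A floor of 3 counts lies at 0.0390 to 0.0474 CPM and covers counting error only. Replicates differed by more than sampling noise, so all were counted.

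The members and gene lists were chosen with earlier results of these data known. Named were the 8 genes, Pkm and, from each pathway list, up to 3 genes past the threshold with the largest change, not all of which are given; Lta among the ligands that rose and the marker genes named singly were chosen after their values were seen. Alternatives were other scaling, filters, fits, DESeq2 1.42.0, a replicate block and leaving out each library. Library totals without a scaling factor, and the resting groups without their most erythroid libraries, were added after seeing the data.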

Additional observations from a re-analysis of the deposited data

Results flagged for a closer look

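Among the genes of the pathway lists, 4 gave a response to stimulation that differed between KO and WT cells by edgeR's test of the difference itself. Stimulated and resting libraries also differ in sex-linked transcripts and in their table, and the response cannot be told apart from these. Of 10 tested ligand genes 1 passed higher and 1 lower, and of 19 other TNF receptors 2 passed higher. The TRAF, NF-kB and CD28 family lists, with 21, 22 and 10 tested genes, gave 0. Over all 17460 genes tested 0.693% passed. Tnfsf9, the ligand of Tnfrsf9, gave a difference of 1.55 ± 0.20 on the log2 scale (KO minus WT response, adjusted p = 0.011), with 6.99 to 7.06 CPM in KO and 4.96 to 6.68 CPM in WT stimulated libraries and 1.28 to 1.52 CPM in KO and 3.15 to 4.01 CPM in WT resting libraries. It passed with each of the 12 libraries left out in turn. Tnfsf4, the ligand of Tnfrsf4, gave -1.91 ± 0.31 (adjusted p = 0.018), with 12.5 to 14.1 CPM in KO and 7.47 to 11.9 CPM in WT stimulated libraries and 1.19 to 1.83 CPM in KO and 0.265 to 0.411 CPM in WT resting libraries. It passed in 5 of the 12 fits with a library left out. Tnfrsf11a gave 2.44 ± 0.40 (adjusted p = 0.019), with 3.26 ± 0.413 CPM in KO and 5.89 ± 2.60 CPM in WT resting cells, and passed in 6 of 12. Tnfrsf1b gave 0.47 ± 0.09 (adjusted p = 0.040), with 131 ± 5.99 CPM in KO and 159 ± 11.3 CPM in WT resting cells, and passed in 3 of 12. Tnfsf4 and Tnfsf9 are also known from antigen-presenting cells. The 16 myeloid markers summed to 947 to 1002 CPM in KO and 1111 to 3202 CPM in WT resting libraries, and their part in these differences was not tested.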

How the results depend on the processing

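With stimulation the 7 receptors kept their direction and passed in all alternatives. Counts of genes past the threshold moved more. For KO against WT at rest, 6 genes became 40 with no filter, 466 with DESeq2, 161 in the fit of all 12 libraries and 30 without the resting libraries highest in erythroid markers (replicate 1 of both genotypes), and 2 to 18 with 1 library left out; none was a member. For stimulated cells 719 became 1142 with DESeq2 and 219 in the fit of all 12 libraries, and 128 to 1408 with 1 library left out. There 2 members became 5 with DESeq2 and 4 with a non-robust fit, and 1 to 3 with 1 library left out. For the difference of responses 121 became 204 with a filter of 1 CPM in 3 libraries, 956 with DESeq2 and 209 without the erythroid-high libraries, and 27 to 1646 with 1 library left out. The cause was not tested.

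Values near 0 changed sign. At rest Tnfrsf8 gave -0.000525 with DESeq2's size factors, -0.0406 with the replicate block and -0.267 to 0.227 with 1 library left out; Tnfrsf9 gave -0.0378 to 0.116, Tnfrsf14 -0.0739 to 0.0818 and Tnfrsf18 -0.0621 to 0.0192. Tnfrsf14 gave 0.0257 and Tnfrsf18 0.000312 with library totals, and Tnfrsf14 0.0058 in the fit of 12 libraries. For the difference of responses Cd27 gave -0.0101 with DESeq2's size factors, -0.0103 with DESeq2 and -0.0453 to 0.0646 with 1 library left out, Tnfrsf4 -0.143 to 0.0537 and Tnfrsf25 -0.0914 to 0.0505. Traf1 in KO cells gave -0.256 with library totals for stimulated against resting.

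Whether replicate numbers pair the samples could not be decided with 3 libraries per group. Deviations from the group mean were correlated between KO and WT libraries. At rest same-numbered libraries gave -0.111 to 0.328 and differently numbered ones -0.387 to 0.252. When stimulated they gave -0.029 to 0.021 and -0.039 to 0.033. With the number as a replicate block, 997 genes passed in stimulated cells and 95 for the difference of responses, where 1 member passed, Tnfrsf9 (0.39 ± 0.07, edgeR adjusted p = 0.039), and of the 4 pathway genes Tnfrsf1b did not (0.47, adjusted p = 0.063). Depth limits Tnfrsf8 most among the 8 genes, with 202 counts in its lowest library, and levels per kilobase depend on the transcript length used.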
